A study of Mus musculus with 47 samples.

Results

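Platelet and megakaryocyte genes were compared between the 3 arrays that the labels name MkP and the 2 arrays named LTHSC, which are 5 of the 47 arrays of a series on blood cell development in 17 groups. In common use MkP stands for the megakaryocyte progenitor and LTHSC for the long-term haematopoietic stem cell. The labels spell out neither name and give no sorting markers. Each of the 5 arrays held RNA of 2000 cells purified from bone marrow of adult C57Bl6 mice, with no transgene or treatment named in the labels. The 4 arrays of MkE (in common use a progenitor of megakaryocytes and red cells) and the 2 of STHSC (the short-term stem cell) came from the same source and served as the neighbouring groups. Replicates are described as biological, without saying whether animals were pooled, and p-values therefore cover only the spread among these arrays. In RNA of a purified population, fewer cells of a type and less RNA per cell cannot be told apart.

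Platelets are fragments of megakaryocytes. They stick to damaged vessel walls through surface glycoproteins and integrins, respond to thrombin, thromboxane and nucleotides, and release the contents of alpha and dense granules. Megakaryocytes make these parts under transcription factors such as GATA1, FLI1 and NFE2, many of which also act in stem cells, and a share of mouse stem cells is known to carry von Willebrand factor and other platelet transcripts. The comparison asked which platelet-type genes the progenitor and the stem cell have in common and which separate them.

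The genes were 143 members of 7 lists by role. Of these, 133 had a probe set with that symbol alone and 127 passed the filter, which asked for a group mean above 3.889, the median log2 value of the table, in at least 1 of the 17 groups. The brightest probe set stood for a gene. These lists and those used further below were chosen with earlier results of these data known, so shares of a list are descriptive. Gp1ba, Mpig6b, Serpine2, Adra2a, Htr2a, Lyn, Ptgs1 and Bin2 were among those not analysed here, and Gp6, Cd226, Slc6a4, Alox12, Pde3a and Myl9 lay under the filter in all groups. All values below are log2 intensity, and a difference is MkP minus LTHSC ± its standard error, from limma with all 47 arrays in 1 fit. A call needed at least 2-fold and an adjusted p under 0.05, by Benjamini-Hochberg over the 13949 genes tested. A group mean over the upper quartile of all values (5.968) is called bright. The file gives no detection calls, so folds from a dim group may be compressed.

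The labels were set against markers. Among the 17 groups, LTHSC had the highest mean of 16 of the 24 genes tested of the stem cell list (66.7%, against 9.05% of all genes). That list also holds Flt3, Cd34 and Cd48, which are not markers of the long-term stem cell. MkP had the highest mean of 12 of the 21 platelet surface genes (57.1%) and 9 of the 19 granule cargo genes (47.4%), against 4.25% of all genes. Over the 13949 genes, arrays of MkP correlated with each other at 0.971 to 0.979, both LTHSC arrays at 0.961, and MkP with LTHSC arrays at 0.871 to 0.904. Upper quartiles of intensity were 52.0 to 56.8 in MkP, against 58.3 and 69.8 in LTHSC. Xist, the transcript of the inactive X, was high in all MkP and MkE arrays, where the Y-linked Eif2s3y was low, and both genes stood the other way in all LTHSC and STHSC arrays. Sex, and any batch that follows it, therefore cannot be told apart from the difference between MkP and LTHSC, while MkP with MkE and LTHSC with STHSC each lie within 1 such class.

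Platelet genes split in both directions. Of the 127 tested, 32 were called higher in MkP (25.2%, against 5.99% of all genes) and 25 lower (19.7%, against 16.6% of all genes), so that the share called lower was near that of genes at large. A further 50 were bright in both groups and not called (39.4%, against 31.5% of all genes). Because earlier results of these data were known when the lists were chosen, these shares describe the lists and test nothing. The median difference was 0.14 over the platelet genes and -0.09 over all genes. The cytoskeleton genes had the largest share called higher (7 of 14, with none lower), and the transcription factors were mostly called lower or not at all (2 higher and 7 lower of 22). Bright in MkP but under the filter level in LTHSC was 1 gene, Ppbp, and no platelet gene showed the reverse. When the arrays were quantile normalized again, the median over all genes became 0.045 in place of -0.087, and the share of calls that were higher was 46.7% in place of 26.6%; the platelet genes then numbered 39 higher and 21 lower. With a term for the class of Xist and Eif2s3y, an alternative chosen after seeing the data, 7 platelet genes lost their call, 12 gained one in the same direction, and 6 that were not called gained one in the opposite direction (Fcer1g, Pecam1, F13a1, Vegfa, Btk and Nfe2). No platelet gene called as reported turned its direction there, although genes of other lists did, as given at the end.

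**Figure D1:**
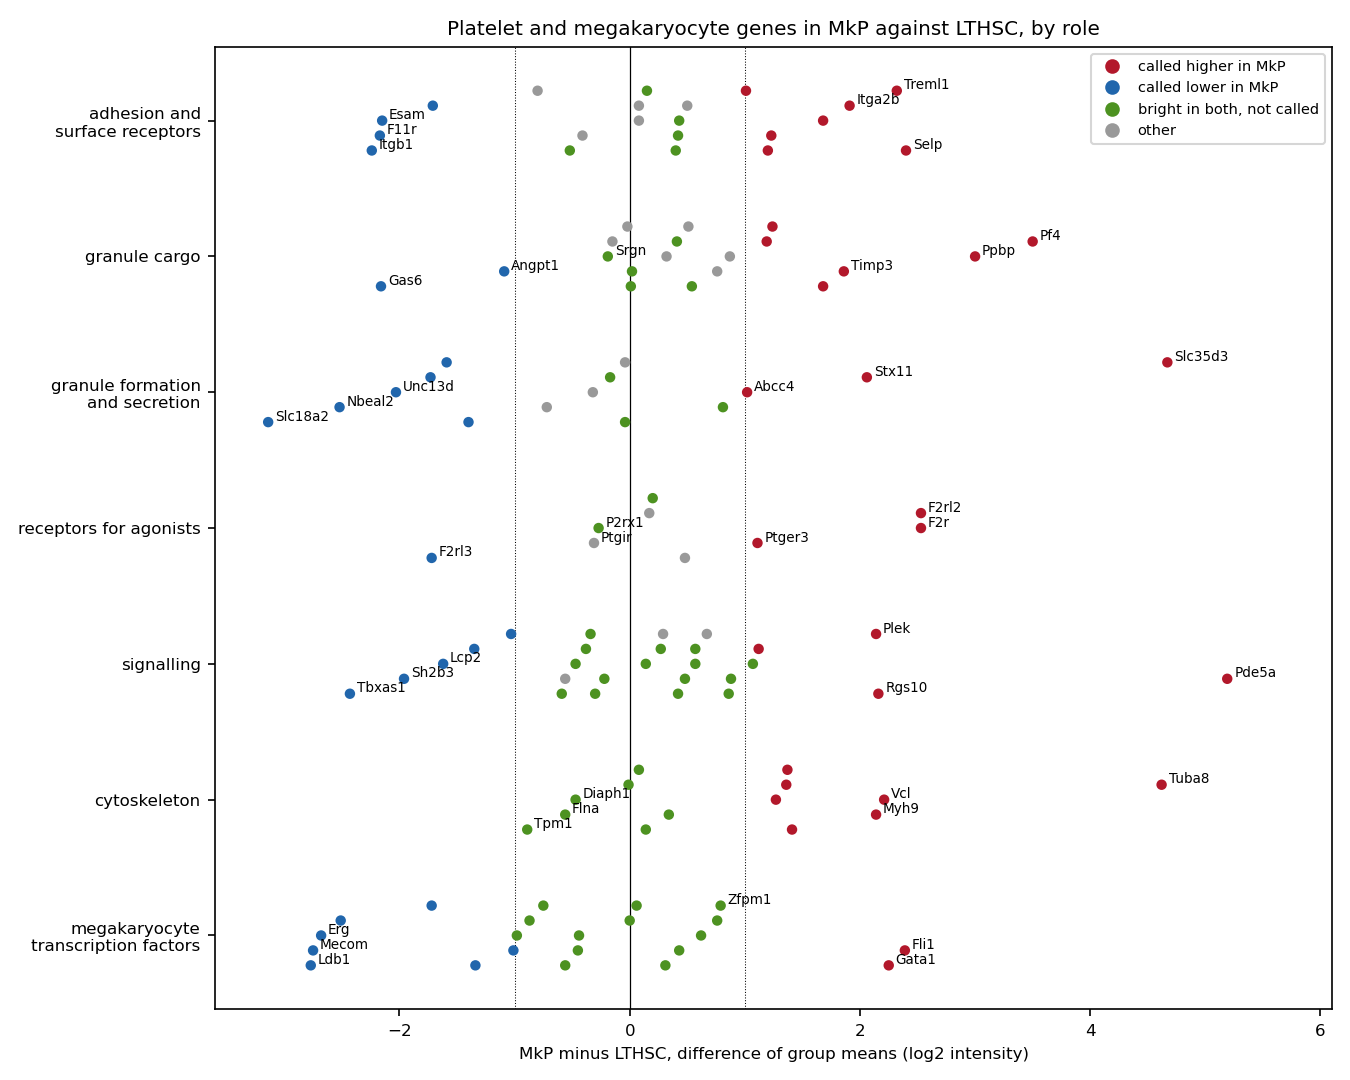
Difference of group means, MkP minus LTHSC (log2 intensity), of the 127 platelet genes tested, 1 point per gene, by role; height within a row carries no meaning, dotted lines mark 2-fold, and the outermost genes of each row are named. The 32 genes called higher in MkP reach 5.19 (Pde5a), the 25 called lower reach -3.14 (Slc18a2), and the 50 bright in both without a call lie between -0.98 and 1.07.

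The promoters of 6 genes are printed for genes of the 3 patterns described below, 2 each: higher in MkP (Pf4, Itga2b), called in neither direction (Mmrn1, Gp9) and lower in MkP (Slc18a2, Nbeal2). They are RefSeq promoter windows on GRCm38.p6, 250 bases before to 50 after the annotated start. Capitals mark 2 forms of the GATA motif, spelled AGATAA or, in its other form, TGATAA. They also mark 2 forms of the ETS motif, spelled CCGGAA or, in its other form, AGGAAG. Both strands were searched, so a match on the opposite strand shows as the reverse complement in capitals.
Pf4: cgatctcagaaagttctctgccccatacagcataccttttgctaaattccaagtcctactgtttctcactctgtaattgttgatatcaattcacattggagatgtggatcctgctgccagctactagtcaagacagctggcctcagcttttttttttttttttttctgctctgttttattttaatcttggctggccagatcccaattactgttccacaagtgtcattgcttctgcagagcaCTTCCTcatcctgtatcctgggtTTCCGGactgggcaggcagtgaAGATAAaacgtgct
Itga2b: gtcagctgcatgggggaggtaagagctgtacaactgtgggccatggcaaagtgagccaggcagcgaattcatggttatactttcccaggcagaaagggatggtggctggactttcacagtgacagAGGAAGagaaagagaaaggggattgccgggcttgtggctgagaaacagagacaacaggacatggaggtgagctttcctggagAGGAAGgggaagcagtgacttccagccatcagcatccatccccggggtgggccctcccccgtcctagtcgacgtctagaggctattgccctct
Mmrn1: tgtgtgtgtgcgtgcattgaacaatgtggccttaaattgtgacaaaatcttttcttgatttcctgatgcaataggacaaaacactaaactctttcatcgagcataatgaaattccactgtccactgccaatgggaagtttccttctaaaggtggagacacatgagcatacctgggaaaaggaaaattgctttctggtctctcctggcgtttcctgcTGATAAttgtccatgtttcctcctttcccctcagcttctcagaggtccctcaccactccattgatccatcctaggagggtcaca
Gp9: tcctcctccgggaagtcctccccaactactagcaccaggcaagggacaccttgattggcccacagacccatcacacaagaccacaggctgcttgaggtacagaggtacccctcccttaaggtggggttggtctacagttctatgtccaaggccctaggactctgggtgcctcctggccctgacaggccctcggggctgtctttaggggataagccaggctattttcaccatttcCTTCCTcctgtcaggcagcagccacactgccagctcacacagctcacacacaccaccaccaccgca
Slc18a2: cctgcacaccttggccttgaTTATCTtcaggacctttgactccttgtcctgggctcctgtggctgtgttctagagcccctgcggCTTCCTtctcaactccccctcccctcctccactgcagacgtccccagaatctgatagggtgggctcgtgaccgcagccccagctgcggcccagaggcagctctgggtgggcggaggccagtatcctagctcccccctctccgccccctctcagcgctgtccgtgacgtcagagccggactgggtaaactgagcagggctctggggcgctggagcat
Nbeal2: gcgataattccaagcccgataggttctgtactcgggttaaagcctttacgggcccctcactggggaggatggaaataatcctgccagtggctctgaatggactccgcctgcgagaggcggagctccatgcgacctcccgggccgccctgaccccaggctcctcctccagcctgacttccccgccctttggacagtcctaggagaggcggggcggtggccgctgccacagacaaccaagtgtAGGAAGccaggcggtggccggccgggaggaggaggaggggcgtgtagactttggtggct
The windows lie at chr5:90772185-90772484 on the plus strand for Pf4, chr11:102469834-102470133 on the minus strand for Itga2b, chr6:60944067-60944366 on the plus strand for Mmrn1, chr6:87777820-87778119 on the plus strand for Gp9, chr19:59260628-59260927 on the plus strand for Slc18a2 and chr9:110654112-110654411 on the minus strand for Nbeal2. Pf4 had 3 matches, 1 of GATA and 2 of ETS type, and Slc18a2 had 1 of each type. Mmrn1 had 1 GATA match, while Itga2b with 2, Gp9 with 1 and Nbeal2 with 1 had ETS matches alone.

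Across the lists, a promoter was found for 29 of the 32 genes called higher, 20 of the 25 called lower and 44 of the 50 bright in both without a call. A GATA motif stood in 5 of the 29 (17.2%), 8 of the 20 (40%) and 9 of the 44 (20.5%), against 21% of all 27025 genes with a promoter. An ETS motif stood in 19 of the 29 (65.5%), 13 of the 20 (65%) and 25 of the 44 (56.8%), against 48.6% of all genes. These letters describe the windows and name no binding site.

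Among adhesion and surface receptors, 7 of 21 were called higher in MkP (33.3%, against 5.99% of all genes). Called lower were 4 (19%, near the 16.6% of all genes), and 5 were bright in both without a call (23.8%, against 31.5%). Selp, which codes for P-selectin, stood at 7.71, 8.01 and 7.97 in MkP, against 5.23 and 5.77 in LTHSC, a difference of 2.40 ± 0.32 (adjusted p = 2.1e-07). Treml1, a receptor stored in platelet granules, stood at 7.98, 8.07 and 7.39 in MkP, against 5.81 and 5.19 in LTHSC (2.32 ± 0.22, adjusted p = 2.5e-10). Neither gene overlapped between the groups, and both were highest in MkP among the 17 groups. Another bright probe set of Selp differed by 0.53.

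The fibrinogen receptor is made of the integrin chains that Itga2b and Itgb3 encode. Itga2b had 11.11, 11.17 and 10.99 in MkP, against 9.61 and 8.75 in LTHSC (1.91 ± 0.29, adjusted p = 3.1e-06). Itgb3 had 10.00, 9.76 and 9.71 in MkP, against 8.65 and 8.53 in LTHSC (1.23 ± 0.38, adjusted p = 0.01), and its call ended without LTHSC replicate 2 (1.17) and with the mean of its probe sets (0.89). Both chains were thus bright in both groups and higher in MkP. Itgb3 was not particular to these groups, as CD4 (9.13) lay above LTHSC (8.59), and ProB (8.37) and IgM+SP (8.07) came next. The tetraspanin gene Cd9 differed by 1.68 ± 0.28 (adjusted p = 1.1e-05), and by 0.98 without LTHSC replicate 1.

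The receptor for von Willebrand factor is a complex of GPIb, GPIX and GPV. Gp9 had 7.48, 7.98 and 7.30 in MkP, against 7.23 and 7.12 in LTHSC, and was not called (0.42, 95% interval -0.18 to 1.01). MkP and LTHSC were the 2 brightest groups for it. Gp5 differed by 1.01 ± 0.38 (adjusted p = 0.034), and by 0.39 without LTHSC replicate 2, whose 5.92 lay below the 7.16 of replicate 1. For Gp1bb the probe sets disagreed in size. The one with the higher mean over all arrays, used here, differed by 0.50 (means of 4.51 in MkP and 4.00 in LTHSC), and the other had means of 9.19 in MkP and 4.14 in LTHSC.

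Pear1, a receptor that signals on contact between platelets, had 9.47, 9.16 and 9.03 in MkP, against 8.94 and 9.20 in LTHSC (0.15, 95% interval -0.38 to 0.68). Its values overlapped between the groups, which were the 2 brightest of 17. Itga6 (0.40, -0.06 to 0.87) and Cd151 (0.43, -0.08 to 0.93), a laminin receptor chain and a tetraspanin, were likewise bright in both without a call, as was Cd84 (-0.52, -1.01 to -0.03). Another bright probe set of Cd151 differed by -0.75. Clec1b, which codes for the podoplanin receptor, was under the filter level in LTHSC (3.75 and 3.63) and ranged from 3.73 to 5.74 in MkP; its call (1.20 ± 0.33, adjusted p = 0.0045) ended without MkP replicate 2 (0.78).

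The surface genes called lower in MkP code for junctional proteins and an integrin chain. Esam had 6.36, 6.62 and 6.08 in MkP, against 8.27 and 8.73 in LTHSC (-2.15 ± 0.25, adjusted p = 1.1e-08). F11r, which codes for JAM-A, had 5.89, 6.66 and 6.12 in MkP, against 8.20 and 8.58 in LTHSC (-2.17 ± 0.25, adjusted p = 1.6e-08). LTHSC was the brightest of the 17 groups for both, and MkP ranked 3. Jam3 differed by -1.71 ± 0.19 and Itgb1 by -2.24 ± 0.54, and with the mean of all probe sets these became -0.91 and -0.76, which ended both calls.

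Granule cargo held both genes level with LTHSC and genes far above it. Vwf, which codes for the adhesive protein of alpha granules and vessel walls, had 11.12, 11.17 and 11.29 in MkP, against 9.73 and 10.29 in LTHSC. The next group mean was 7.0 (MkE). The difference of 1.19 ± 0.45 was 2.28-fold and just passed the test (adjusted p = 0.038), and it was 0.90 and no longer called without LTHSC replicate 1. Leaving out any other array of either group gave 1.14 to 1.47 and also ended the call.

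Mmrn1, which codes for multimerin 1, the carrier of factor V in alpha granules, had 9.06, 8.95 and 9.06 in MkP, against 8.58 and 9.43 in LTHSC. The MkP arrays lay between both LTHSC arrays, and the difference was 0.02 with a 95% interval of -0.86 to 0.89. The next group, STHSC, had a mean of 6.60. Clu, which codes for the secreted chaperone clusterin, had 7.85, 8.22 and 8.39 in MkP, against 7.57 and 7.66 in LTHSC (0.54, 95% interval -0.18 to 1.26). Pros1, the gene of the anticoagulant protein S, had 5.23, 6.73 and 6.22 in MkP, against 5.68 and 6.42 in LTHSC (0.01, 95% interval -0.61 to 0.62). Nrgn (0.41) and Srgn (-0.19), which codes for the granule proteoglycan serglycin, were also bright in both without a call. MkP and LTHSC were the 2 brightest groups for Vwf, Mmrn1, Clu, Pros1, Nrgn and Timp3.

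**Figure D2:**
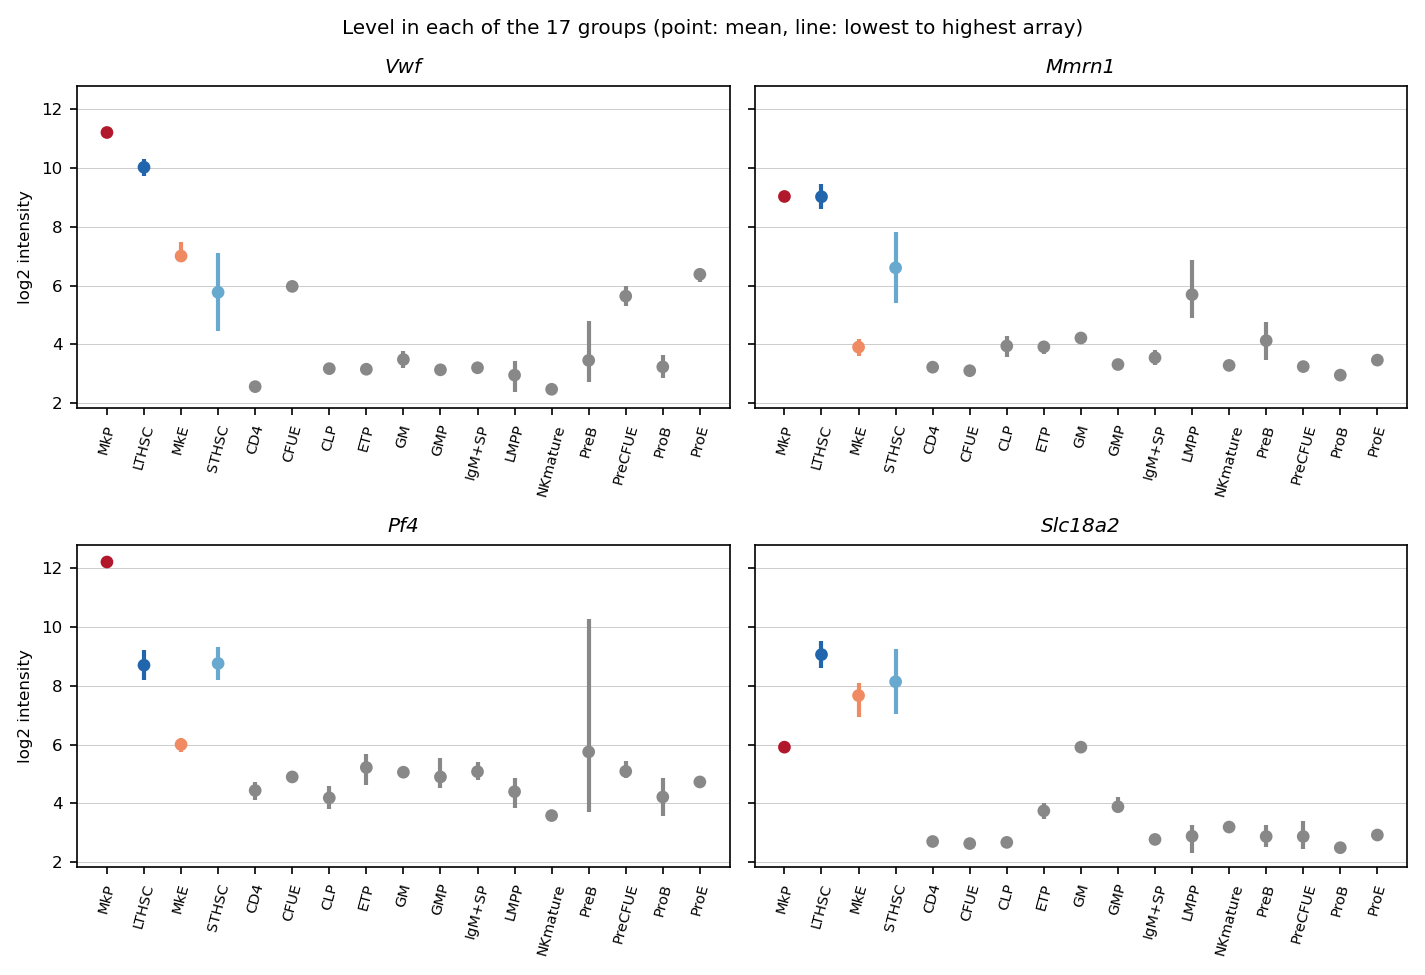
Log2 intensity of Vwf, Mmrn1, Pf4 and Slc18a2 in each of the 17 groups, with the mean as a point and a line from the lowest to the highest array; MkP, LTHSC, MkE and STHSC stand first and the others follow by name. MkP (11.19) and LTHSC (10.01) stand above the rest for Vwf and at 9.02 and 9.01 for Mmrn1, while Pf4 is highest in MkP (12.19), with STHSC at 8.75 and LTHSC at 8.69, and LTHSC is highest for Slc18a2 (9.05).

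The chemokine genes separated the groups most within the cargo. Pf4, the gene of platelet factor 4, had 12.27, 12.13 and 12.16 in MkP, against 9.19 and 8.19 in LTHSC, a difference of 3.5 ± 0.87 or 11.3-fold (adjusted p = 0.0017). LTHSC still ranked 3 of the 17 groups, beside STHSC with a mean of 8.75. Ppbp, which codes for the precursor of another platelet chemokine, had 7.06, 5.88 and 6.88 in MkP, against 3.44 and 3.78 in LTHSC (3.00 ± 0.75, adjusted p = 0.0017). Timp3, the gene of a metalloproteinase inhibitor, differed by 1.86 ± 0.28 (adjusted p = 1.6e-06).

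Tgfb1 (1.68 ± 0.46) and Ltbp1 (1.24 ± 0.22), a growth factor and its binding protein, were called higher too. Tgfb1 was 1.28 and not called without LTHSC replicate 1. Ltbp1, under the filter level in LTHSC, was 0.18 and not called with a floor of 16 on the intensities. Lower in MkP were Gas6 (-2.16 ± 0.30, adjusted p = 6e-07), a ligand of the TAM receptors, and Angpt1 (-1.09 ± 0.33, adjusted p = 0.0085), the ligand of Tie2, which was -0.72 and not called without LTHSC replicate 2. The other 6 cargo genes, F5, Thbs1, Sparc, Pdgfb, Vegfa and F13a1, were not called and not bright in both groups, with differences between -0.15 and 0.87.

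Of the genes of granule formation and secretion, 6 of 15 were called lower in MkP (40%, against 16.6% of all genes) and 3 higher (20%, against 5.99%). Genes of the dense granule differed in direction. Hps1 (0.81), Hps5 (-0.72) and Lyst (-0.04), which act in making it, were not called. Slc35d3, a transporter gene that mouse platelets need for dense granules, had 9.31, 9.03 and 8.79 in MkP, against 5.13 and 3.61 in LTHSC (4.67 ± 0.61, 25.5-fold, adjusted p = 1.8e-07). It was not particular to MkP, as ETP had a higher mean (9.38) and LMPP (7.47) and CLP (7.11) came next. Slc18a2, which codes for the vesicular transporter of serotonin, had 5.73, 5.97 and 6.02 in MkP, against 8.58 and 9.52 in LTHSC (-3.14 ± 0.38, adjusted p = 2.9e-08), so it was 8.81-fold higher in LTHSC. The groups did not overlap for either gene.

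Nbeal2, the gene of a protein needed to retain cargo in alpha granules, had 5.63, 5.57 and 5.80 in MkP, against 8.41 and 7.97 in LTHSC (-2.52 ± 0.35, adjusted p = 6.3e-07). The partners of alpha granule formation Vps33b (-0.04, 95% interval -0.55 to 0.46) and Vipas39 (-0.17, -0.64 to 0.29) were bright in both without a call, although another bright probe set of Vipas39 differed by -1.59. Of the genes of the membrane fusion machinery, Unc13d (-2.03 ± 0.28), Snap23 (-1.73 ± 0.41), Vamp8 (-1.59 ± 0.32) and Stxbp2 (-1.40 ± 0.28) were lower in MkP, and Stx11, which codes for a syntaxin, was higher (2.06 ± 0.36, adjusted p = 2.5e-05). Abcc4, which codes for an efflux pump of platelets and other cells, was also called higher (1.02 ± 0.27, adjusted p = 0.0033) and was 0.71 and not called without LTHSC replicate 1. Snap23 was -1.05 and not called without LTHSC replicate 2 and 0.32 by another bright probe set, and Stxbp2 was -1.0 and not called after renewed quantile normalization. Rab27b, a GTPase gene of granule release, had means of 3.97 in MkP and 4.30 in LTHSC by the probe set used (-0.32), while its other 3 probe sets differed by 2.32 to 2.46 with MkP higher.

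Receptors for agonists separated within 1 family. Mouse platelets are known to sense thrombin through PAR3 and PAR4. F2rl2, the gene of PAR3, had 7.24, 6.34 and 6.88 in MkP, against 4.53 and 4.05 in LTHSC (2.53 ± 0.23, adjusted p = 1e-10). F2rl3, the gene of PAR4, had 3.91, 4.06 and 3.88 in MkP, against 5.96 and 5.38 in LTHSC (-1.72 ± 0.36, adjusted p = 2.5e-04), and LTHSC was the brightest group for it. F2r, the gene of PAR1, had 12.29, 12.18 and 12.43 in MkP, against 9.82 and 9.72 in LTHSC; its difference of 2.53 ± 0.89 passed the test (adjusted p = 0.024) but not without MkP replicate 3 (2.46) or either LTHSC array.

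Ptger3, a prostaglandin E receptor gene, was 1.11 ± 0.26 higher (adjusted p = 9.9e-04), with 0.57 as the mean of its probe sets. The ATP-gated channel gene P2rx1 had 5.93, 7.02 and 6.43 in MkP, against 6.45 and 7.02 in LTHSC (-0.27, 95% interval -0.76 to 0.21). The thromboxane receptor gene Tbxa2r differed by 0.20 (-0.38 to 0.77). Both were bright in both groups. The purine receptor genes P2ry1 and P2ry12 and the prostacyclin receptor gene Ptgir were under the filter level in LTHSC and not called (0.48, 0.17 and -0.31).

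Signalling genes were the role with the most members bright in both without a call, 15 of 27 (55.6%, against 31.5% of all genes). Of the 27, 4 were called higher (14.8%, against 5.99% of all genes) and 5 lower (18.5%, near the 16.6% of all genes). Nitric oxide acts on platelets through cyclic GMP. The genes of the receiving cyclase subunit, Gucy1a1, and of the kinase, Prkg1, were bright in both groups, while Pde5a, the gene of the phosphodiesterase that breaks cyclic GMP down, was not. Gucy1b1, which codes for the partner subunit, was not bright in either group (means of 4.28 in MkP and 4.00 in LTHSC, 0.29), and its other probe set differed by 1.76. Gucy1a1 had 6.69, 7.77 and 7.61 in MkP, against 6.58 and 7.60 in LTHSC (0.27, 95% interval -0.50 to 1.04). Prkg1 had 7.81, 8.27 and 7.84 in MkP, against 8.41 and 8.47 in LTHSC (-0.47, -1.06 to 0.12). For both, MkP and LTHSC were the 2 brightest groups, although 1 other probe set of Prkg1 differed by 1.58 and the dimmer ones of Gucy1a1 by 1.12 and 1.33.

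Pde5a had 9.28, 9.52 and 9.32 in MkP, against 4.12 and 4.25 in LTHSC, a difference of 5.19 ± 0.33 or 36.5-fold (adjusted p = 8.3e-15). It was the largest difference of the platelet genes, and LTHSC was the 12th of 17 groups. Plek (2.14 ± 0.41, adjusted p = 8.5e-05), the gene of the protein kinase C substrate pleckstrin, Rgs10 (2.16 ± 0.35) and Rap1b (1.12 ± 0.23), genes of a G protein regulator and of the GTPase that activates integrins, were higher as well. Rap1b was 0.98 and not called without LTHSC replicate 1, and another bright probe set of Plek differed by -0.14.

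Lower in MkP was Tbxas1, the gene of thromboxane synthase, with 7.11, 7.88 and 7.35 in MkP, against 10.06 and 9.70 in LTHSC (-2.43 ± 0.32, adjusted p = 1.5e-07). Sh2b3 (-1.96 ± 0.39), Lcp2 (-1.62 ± 0.30), Inpp5d (-1.35 ± 0.32) and Lat (-1.03 ± 0.27), genes of adaptors and of a lipid phosphatase that many blood cells use, were called lower too. Of these, Inpp5d lost its call with the mean of its probe sets (-0.71) and Lat without LTHSC replicate 1 (-0.65). The integrin-activating genes Tln1 (-0.22, 95% interval -0.94 to 0.50) and Fermt3 (0.88, 0.48 to 1.27) and the regulator Rgs18 (0.42, -0.30 to 1.14) were bright in both without a call, and Fermt3 passed on p (adjusted p = 5.5e-04) but not on size. Both other bright probe sets of Fermt3 ran the opposite way (-0.94 and -0.36).

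Of the 14 cytoskeleton genes, 7 were called higher in MkP (50%, against 5.99% of all genes) and none was called lower. Tuba8, an alpha tubulin gene, had 8.89, 9.63 and 8.60 in MkP, against 4.58 and 4.26 in LTHSC (4.62 ± 0.24, 24.6-fold, adjusted p = 5e-17). Tubb1, the beta tubulin gene of the platelet's marginal band, had 4.97, 6.33 and 6.11 in MkP, against 4.86 and 4.03 in LTHSC (1.36 ± 0.36, adjusted p = 0.003), and 0.94 without LTHSC replicate 2, which ended its call. Vcl (2.21 ± 0.36), Myh9 (2.14 ± 0.43), Actn1 (1.41 ± 0.56), Tpm4 (1.37 ± 0.26) and Gsn (1.27 ± 0.49), genes of actin-linked proteins and nonmuscle myosin, were also called higher. Actn1 (adjusted p = 0.046) lost its call in 9 alternatives and Gsn (adjusted p = 0.04) in 8, and Vcl with the mean of its probe sets (1.0).

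Mylk, the gene of myosin light chain kinase, had 7.89, 6.80 and 7.30 in MkP, against 7.05 and 7.45 in LTHSC (0.08, 95% interval -0.69 to 0.84). The groups overlapped and were the 2 brightest of 17, but another probe set of Mylk had means of 3.79 in MkP and 6.59 in LTHSC. Zyx, Was, Wdr1, Flna, Diaph1 and Tpm1 were bright in both without a call, with differences from -0.89 (Tpm1) to 0.34 (Wdr1).

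**Figure D3:**
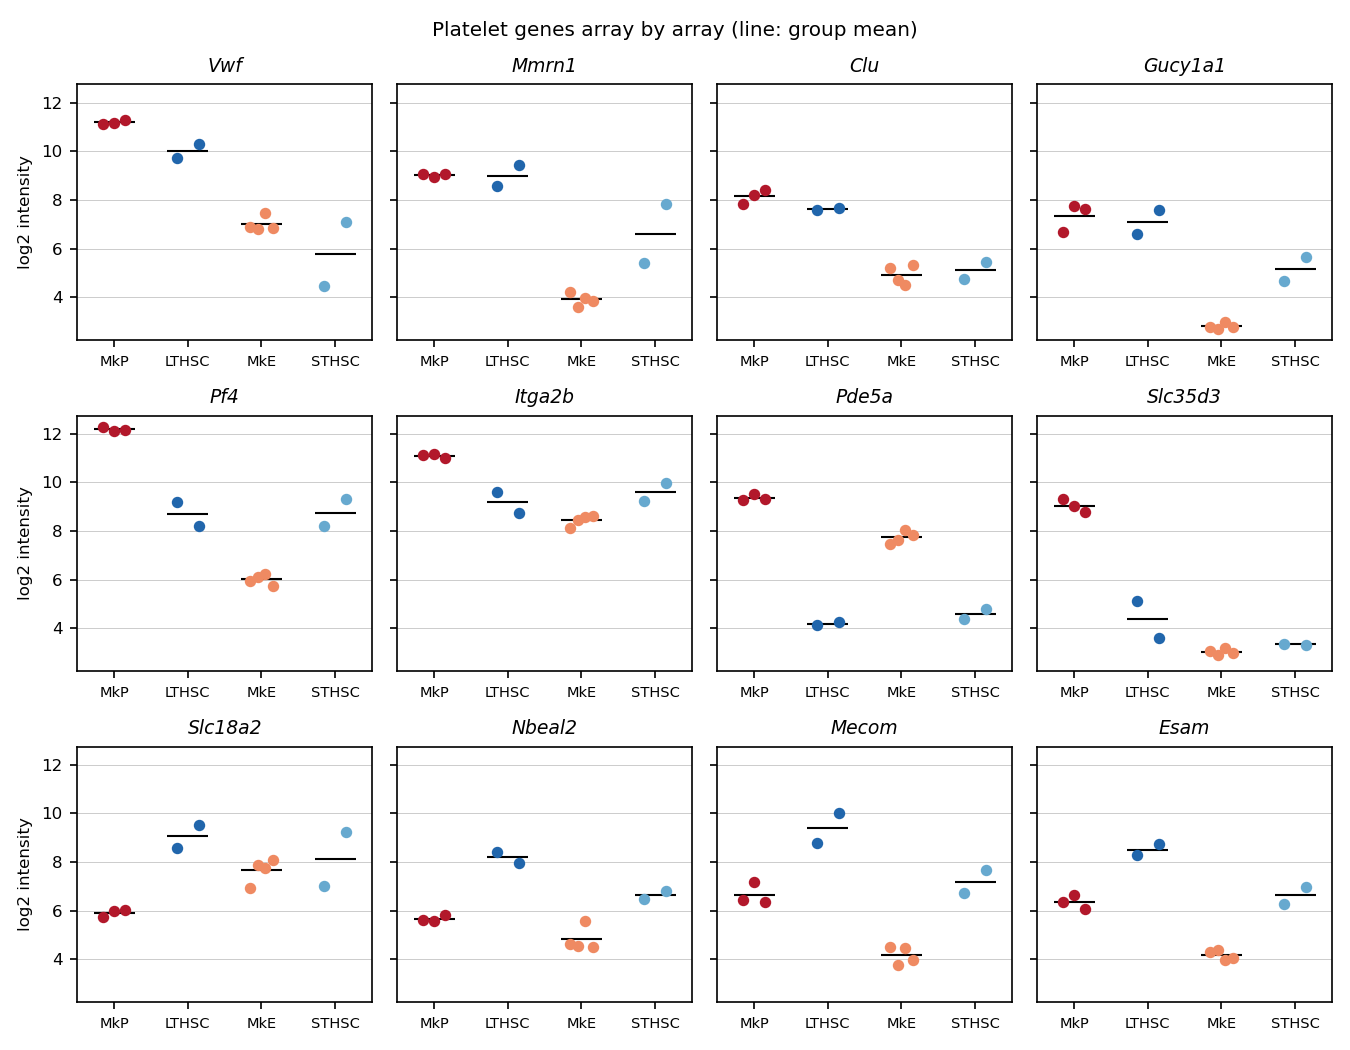
Log2 intensity of 12 platelet genes on each array (points) of MkP, LTHSC, MkE and STHSC, with the group mean as a line. The top row shows genes high in both MkP and LTHSC, the middle row genes higher in MkP, such as Pf4 at 12.13 to 12.27 in MkP against 8.19 and 9.19 in LTHSC, and the bottom row genes higher in LTHSC.

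The transcription factors had the most genes highest in LTHSC, 11 of 22 (against 9.05% of all genes), and all 22 were bright in both groups. Fli1, an ETS factor gene of megakaryocyte maturation, had 9.52, 9.31 and 9.67 in MkP, against 6.59 and 7.63 in LTHSC (2.39 ± 0.37, adjusted p = 3.5e-06). Gata1, needed for megakaryocytes and red cells, had 10.39, 10.44 and 9.90 in MkP, against 7.13 and 8.84 in LTHSC (2.25 ± 0.30, adjusted p = 2.4e-07), and differed by 1.40 without LTHSC replicate 1. No other of the 22 factors was called higher, and the arrays of the groups did not overlap for either gene.

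Lower in MkP were Ldb1 (-2.77 ± 0.51), Mecom (-2.75 ± 0.43), Erg (-2.68 ± 0.40), Lyl1 (-2.51 ± 0.31), Lmo2 (-1.72 ± 0.33), Etv6 (-1.34 ± 0.27) and Tal1 (-1.01 ± 0.25), all known for roles in stem cells as well, and LTHSC was the brightest of 17 groups for each of them. Mecom had 6.42, 7.18 and 6.34 in MkP, against 8.78 and 10.01 in LTHSC. Erg had 7.56, 7.43 and 7.68 in MkP, against 10.14 and 10.35 in LTHSC. Etv6 was -0.56 and not called with the mean of its probe sets, and Tal1 was -0.83 and not called without LTHSC replicate 2.

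The other 13 factors were not called, with differences from -0.98 (Meis1) to 0.79 (Zfpm1). Gata2 had 10.07, 10.22 and 9.89 in MkP, against 10.62 and 10.39 in LTHSC (-0.45, 95% interval -0.99 to 0.09). Nfe2, which proplatelet formation needs, had 9.11, 9.38 and 8.76 in MkP, against 9.92 and 9.74 in LTHSC (-0.75, -1.50 to 0.00). Runx1 differed by 0.76 by the probe set used, and by -1.82 and 1.35 by others of its probe sets that are bright in at least 1 group.

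The 50 genes without a call are not shown to be equal. Of these, 24 had a 95% interval within 2-fold either way, and 8 passed the adjusted p but were under 2-fold. Of the 50, 31 were called in none of the alternatives. The intervals cover only the probe set used. Other bright probe sets of some of these genes differed over 2-fold, such as those of Fyn (1.71), Mef2c (1.54), Rgs18 (1.23) and Stim1 (-1.38). Of all platelet genes, 40 had 2 or more probe sets bright in MkP or LTHSC. In 9 of these 40, the probe sets differed in sign with 1 of them 2-fold or more from 0.

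Each group was next set against its neighbour. This asks whether a platelet gene is higher than in that neighbour, not whether it is high among the 17 groups. The 2 comparisons share no arrays with each other. Of the 127 genes, 41 were called higher in MkP than in MkE (32.3%, against 2.96% of all genes), and 20 were called higher in LTHSC than in STHSC (15.7%, against 4.75% of all genes). Both calls were met by 14 genes (11%, against 0.394% of all genes): Vwf, Itgb3, Clu, Mmrn1, Mecom, Gucy1a1, Mylk, Esam, Tbxas1, F5, Pros1, F11r, Tpm4 and Timp3. The granule cargo gave 6 of these 14. Tpm4 met both calls although MkP ranked 11 and LTHSC 12 of the 17 groups for it, with STHSC at 13 and MkE at 14. These shares carry the same limit from the choice of the lists.

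Vwf was 4.19 ± 0.38 higher in MkP than in MkE (adjusted p = 6.4e-11) and 4.24 ± 0.50 higher in LTHSC than in STHSC (adjusted p = 1.6e-07). Its STHSC arrays stood at 4.44 and 7.09, and its MkE arrays from 6.79 to 7.47. Itgb3 was 6.21 higher in MkP than in MkE and 2.72 higher in LTHSC than in STHSC, and Mmrn1 5.11 and 2.40 higher in the same order. Without STHSC replicate 1, the lower array, LTHSC minus STHSC was 2.92 for Vwf and 1.49 for Itgb3, both still called, and 1.18 for Mmrn1, which was not (adjusted p = 0.24). Of the 14, Vwf, Itgb3, Tpm4 and Timp3 were higher in MkP than in LTHSC, Mecom, Esam, Tbxas1 and F11r were lower, and the other 6 were not called.

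Other genes stood out against 1 neighbour alone. Pf4 was 6.18 ± 0.73 higher in MkP than in MkE, and LTHSC minus STHSC was -0.06 (95% interval -2.0 to 1.87). Slc35d3 was 6.02 higher in MkP than in MkE and was not called between LTHSC and STHSC (1.04, adjusted p = 0.37). Nbeal2 was 1.55 higher in LTHSC than in STHSC and was not called between MkP and MkE (0.86). Among the 17 groups, NKmature (8.06) came close to LTHSC (8.19) for Nbeal2, followed by CD4 (7.26). Slc18a2 was lower in MkP than in MkE (-1.75) and was not called between LTHSC and STHSC (0.92). Called higher against 1 neighbour and not the other was not tested as a difference.

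The calls of LTHSC against STHSC rest on the spread of all 47 arrays. With the 4 arrays of these groups alone, none of the 14 genes was called by limma for LTHSC, although 2068 of all 13949 genes had an unadjusted p under 0.05 there. Without STHSC replicate 1, 6 of the 14 kept both calls, and without LTHSC replicate 2, 7 did.

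**Figure D4:**
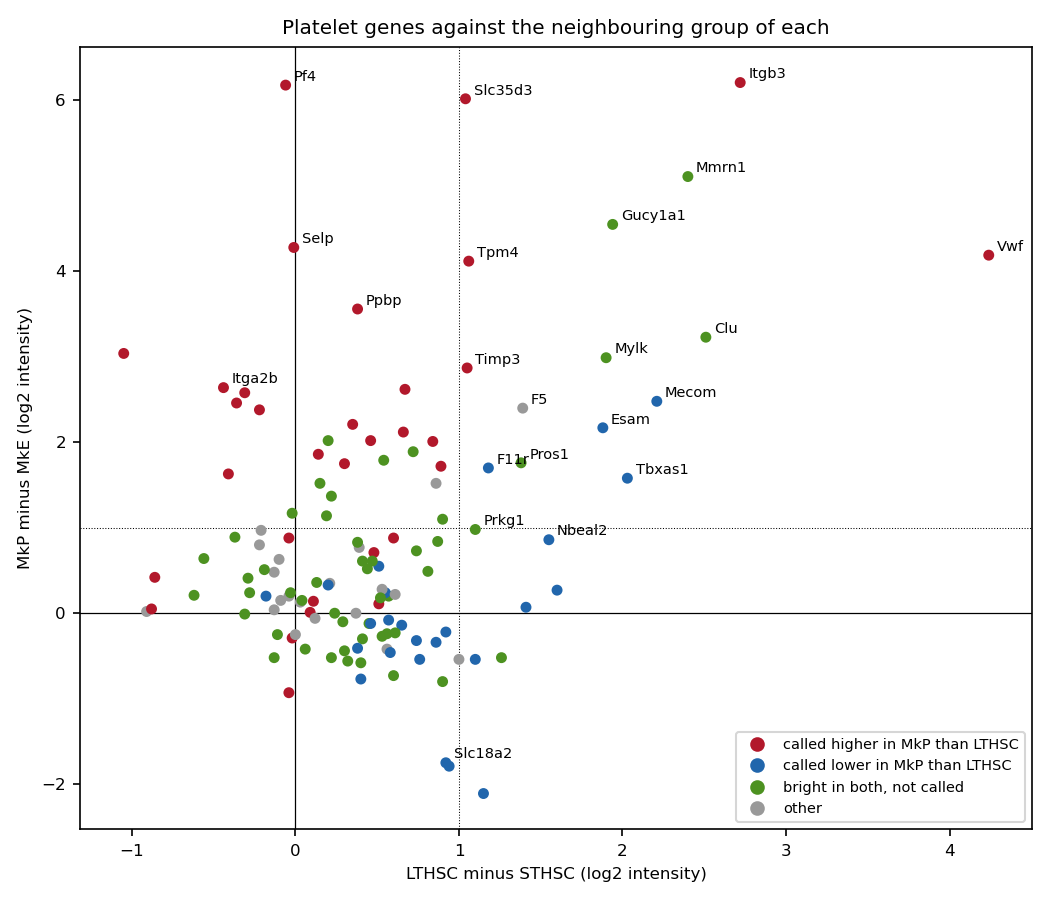
MkP minus MkE (vertical) against LTHSC minus STHSC (horizontal), log2 intensity, for the 127 platelet genes, coloured by their call between MkP and LTHSC; dotted lines mark 2-fold. The 14 genes called higher on both axes lie at the upper right, with Vwf at 4.19 and 4.24, while Pf4 lies at 6.18 on the vertical axis and -0.06 on the horizontal.

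For 15 platelet genes MkP and LTHSC were the 2 brightest of the 17 groups (11.8%, against 1.04% of all genes). These were Vwf, Mmrn1, Gucy1a1, Pros1, Clu, Timp3, Prkg1, Gnaz, Clec1b, Tubb1, Pear1, Mylk, Gp9, Nrgn and Tln1. The gap from the lower of both means to the next group was 3.00 for Vwf, 2.40 for Mmrn1 and 1.94 for Gucy1a1. It was 1.06 or less for the other 12, and 0.19 for Nrgn and Tln1, for which STHSC came next. The choice of the lists limits the share here too.

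Other lists, given next, show what else differed between the groups. Over all genes, 5.99% were called higher in MkP and 16.6% lower, and a list with shares near these does not stand apart. Of the 24 genes tested of the stem cell list, 18 were lower in MkP and none was higher, with a median of -2.30. The 18 include Flt3 (-1.44) and Cd34 (-2.61), which do not mark the long-term stem cell. Procr, the gene of a receptor used to sort stem cells, had 3.14, 3.72 and 3.34 in MkP, against 10.15 and 10.46 in LTHSC (-6.91 ± 0.38, adjusted p = 1.5e-16). Hlf, a stem cell transcription factor gene, differed by -4.93 ± 0.24 and Fgd5 by -4.18 ± 0.31. The genes of this list without a call were Fhl1 (0.53), Mycn (0.18), Ctnnal1 (-0.17), Slamf1 (-0.46), Tek (-0.98) and Cd48 (-1.26), of which all but Cd48 were bright in both groups.

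Cell cycle genes went the other way. Of the mitosis genes 18 of 19 were higher in MkP (median 2.50), and of the DNA replication genes 15 of 21 (median 1.46), with none lower. Ccna2, the gene of cyclin A2, had 9.86, 9.91 and 9.63 in MkP, against 3.84 and 7.42 in LTHSC (4.17 ± 0.47, adjusted p = 8.3e-09). The mean over the mitosis genes was 8.26 to 8.88 in MkP, against 5.01 and 7.01 in LTHSC, so both LTHSC arrays lay below all MkP arrays. Prc1 (3.41), Nusap1 (3.38), Rrm2 (3.59), Mcm4 (2.76) and Pola1 (2.45) were called higher too. Without LTHSC replicate 1, the lower array, Ccna2 was 2.38, Prc1 1.79, Nusap1 2.04 and Rrm2 2.36, all still called, while Cdk1 (0.70), Plk1 (0.60), Birc5 (1.27) and Tpx2 (0.67) were no longer called. Of the 15 cell cycle inhibitor genes, 2 were higher (Cdkn2c and Rb1) and 6 lower, of which Gadd45a (-2.60), Rbl2 (-2.49) and Cdkn1a (-2.04) moved most. Cdkn1a stood at 9.11 and 5.95 in LTHSC and was -0.46 without replicate 1. Rbl2 was -1.45 without LTHSC replicate 2, and Rb1 was 0.71 and not called with the mean of all probe sets.

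The largest falls in MkP came from immediate early genes, which cells switch on within minutes of a stimulus. Of the 17 tested, 15 were lower, with a median of -4.48. Fos had 4.56, 3.39 and 4.15 in MkP, against 12.93 and 12.89 in LTHSC (-8.88 ± 1.63, adjusted p = 4.7e-05), and Jun differed by -7.89 ± 1.45. Their means were 5.37 and 3.18 in MkE, against 13.02 and 11.63 in STHSC, so that Fos and Jun split these 4 groups as Xist and Eif2s3y did. Within these 4 groups, what goes with that class cannot be told apart from the group. Over the other groups the split did not hold throughout. ProB, with Xist, had means of 12.27 (Fos) and 9.82 (Jun), and CLP and GMP, with Eif2s3y, had 5.66 and 5.92 for Jun. For Fos, CFUE with Xist (3.46) and IgM+SP with Eif2s3y (12.15) kept it. PreB, with Xist in replicates 1 and 2 and Eif2s3y in 3 and 4, was high throughout (Fos 11.12 to 12.78, Jun 10.04 to 10.82). Arrays of 1 group also differed widely. In LMPP, Fos ranged from 3.86 to 13.26 and Jun from 3.21 to 11.46, and in ETP Jun ranged from 6.17 to 11.62. A link to sex was not tested.

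Genes of MHC class I and the interferon response were lower in MkP for 13 of 18, with a median of -1.53. Ifitm1 had 8.23, 7.52 and 7.73 in MkP, against 11.28 and 11.62 in LTHSC (-3.62 ± 0.34, adjusted p = 1e-10), followed by Irf1 (-2.98) and Psmb8 (-2.51). Of the 18 ribosome biogenesis genes 5 were lower (27.8%, against 16.6% of all genes) and none higher. The largest falls among these were Ncl (-1.80), Pes1 (-1.77) and Nip7 (-1.32). With the mean of all probe sets Ncl was -0.21 and Nip7 0.08, and neither was called. Of the 8 HoxA and partner genes 2 were lower (25%, against 16.6% of all genes), Hoxa9 (-2.41) and Hoxa10 (-2.33). With the mean of all probe sets Hoxa10 was -0.89 and not called.

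**Figure D5:**
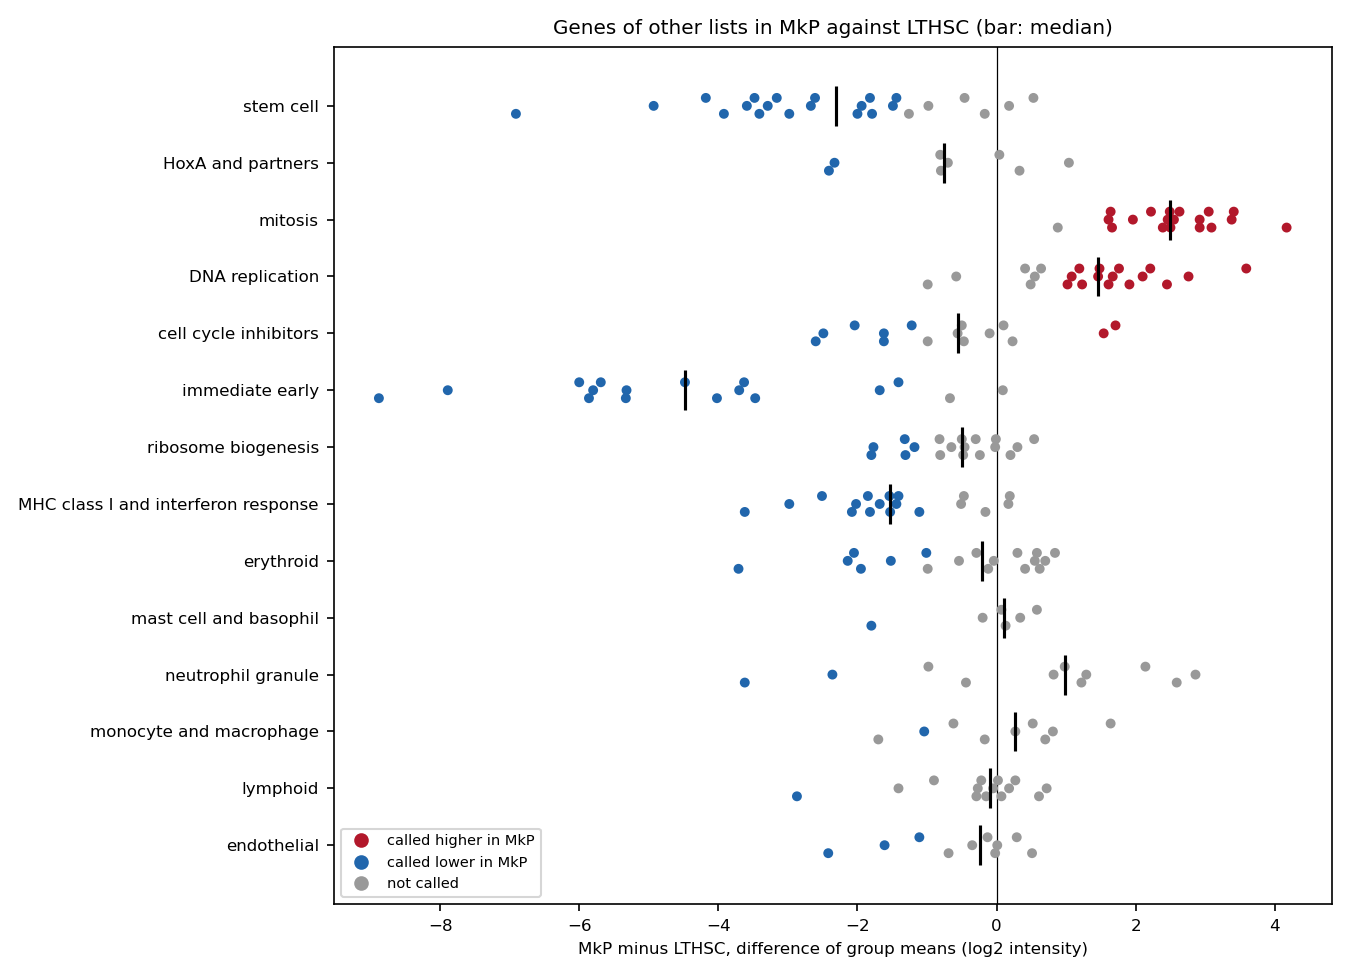
Difference of group means, MkP minus LTHSC (log2 intensity), of the genes of 14 other lists, 1 point per gene, with the median of each list as a bar. Mitosis and DNA replication genes lie to the right (medians 2.50 and 1.46), and stem cell and immediate early genes to the left (-2.30 and -4.48).

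Markers of other cells were measured beside the platelet genes. Called lower in MkP were 16.6% of all genes, 33.3% of the erythroid and 30% of the endothelial genes. The shares were 18.2% of the neutrophil granule, 16.7% of the mast cell, 11.1% of the monocyte and 7.14% of the lymphoid genes. These last shares were near or under that of genes at large. The mean over 18 erythroid genes was 5.73 to 6.20 in MkP, against 5.95 and 6.98 in LTHSC, and 6 were called lower in MkP, led by Car1 (-3.71 ± 0.56), Ermap (-2.14) and Car2 (-2.05). LTHSC replicate 2 was the high one, with 9.39 for Klf1 and 11.95 for Car1, against 6.43 and 8.91 in replicate 1. Without replicate 2, Car1 was -2.20 and still called, and Ermap (-0.61), Rhd (-0.51) and Tfrc (-0.34) were not. The mean over 11 neutrophil granule genes was 6.65, 4.72 and 5.77 in MkP, against 5.48 and 5.12 in LTHSC. Ngp stood at 10.22, 5.28 and 7.85 in MkP, against 5.32 and 4.53 in LTHSC, and was not called, while Prtn3 (-3.62) and Mpo (-2.36) were called lower. Mpo was -1.90 and not called without LTHSC replicate 1. Of the 10 endothelial genes 3 were called lower (Egfl7 -2.42, Eng -1.61, Sox18 -1.11), 5 of the 10 were under the filter level in MkP and 2 in LTHSC. Of the mast cell, monocyte and lymphoid genes 1 of each list was lower, Cpa3 (-1.80), Irf8 (-1.04) and Dntt (-2.87). The Irf8 call ended in 7 alternatives, with -0.59 without MkP replicate 2. The part of other cells in the platelet values was not tested.

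Over all genes, the 8 largest rises in MkP among genes called with no overlap between arrays were Xist (6.45), Pde5a (5.19), Slc35d3 (4.67), Tuba8 (4.62), E2f8 (4.40), Mrvi1 (4.35), Cap1 (4.2) and Bmp2k (4.18). Platelet list genes made up 3 of these 8. Mrvi1, whose product is a partner of the cyclic GMP kinase in platelets, had 8.0, 7.75 and 8.01 in MkP, against 3.76 and 3.39 in LTHSC (4.35 ± 0.27, adjusted p = 4.8e-15). The largest falls were Fos (-8.88), Jun (-7.89), Procr (-6.91), Fosb (-6.00), Mettl7a1 (-5.96), Eif2s3y (-5.92), Egr1 (-5.86) and Dusp1 (-5.80), of which 5 belong to the immediate early list and none to the platelet lists. Over the 13949 genes tested, 836 were called higher and 2309 lower in MkP.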

How the data were processed

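RNA of 2000 purified cells per sample went through dual amplification and was hybridised to Affymetrix mouse arrays, per the labels' protocols and the design text of the series. As deposited, 1 table holds linear intensities of 47 arrays, made with RMA by the authors per that text; scanner files were not used here. Their log2 was taken, and limma 3.58.1 in R 4.3.3 fitted 17 group means to the deposited arrays' log2 values. Probe sets were named through the platform annotation: of 45101, 34958 had 1 symbol, 932 several and 9211 were not listed. The genes named in the text are mainly the members of the platelet lists. Of each other list, the 3 called members that changed most in each direction are named. Over all genes whose arrays did not overlap, the 8 largest rises and 8 largest falls are named. Stem cell genes without a call, Klf1, Ngp and Mrvi1 were added after their values were seen. Also outside these rules are Flt3, Cd34 and genes named because their calls changed between settings, such as Cdk1, Plk1, Birc5 and Tpx2. The members and lists were chosen with earlier results of these data known. For arrays, their number limits the precision. In data simulated for this comparison (13949 genes, 200 changed), 83.5% of changes of 1.5 and 100% of changes of 3 (log2) were recovered. Of the unchanged genes, 7 and 8 were called. The simulated arrays had independent noise, no other group differences and no shifts of whole arrays, so recovery in the real arrays may differ. Replicate numbers came from the titles. Deviations of same-numbered MkP and LTHSC arrays correlated at 0.091 and 0.242, and those of MkP replicate 3 with the LTHSC arrays at 0.189 and -0.189. With 2 LTHSC arrays their deviations mirror each other, so these values cannot show whether the numbers pair arrays. The main fit used no pairing. Alternatives were the probe set rule, filter, normalization, floor, spread, samples fitted, replicate block, each array left out and, added after seeing the data, a term for the class of sex-linked transcripts.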

Additional observations from a re-analysis of the deposited data

Results flagged for a closer look

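Of 12 platelet genes examined by array, 2 had 1 of the 4 MkE arrays far from the others, where chance marks about 1 in 20 groups. The 12 genes share the same 4 arrays, so that rate for independent groups does not carry over to them. Vwf stood at 6.90, 6.79, 7.47 and 6.86 in MkE, and the gap of the highest array to the next was 0.842 of the range. Nbeal2 stood at 4.62, 4.54, 5.58 and 4.51 in MkE, with a gap of 0.895 of the range. In both genes the high array was MkE replicate 3. Without it, the platelet genes called higher against both neighbours numbered 15 in place of 14, with Nbeal2 added.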

How the results depend on the processing

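Of the 57 platelet genes called between MkP and LTHSC, 33 kept their call in every setting tried, and none of the 57 turned its direction. The platelet counts stayed within 1.5 times those reported, at 25 to 39 higher and 20 to 29 lower. Counts over all genes moved more, and the cause was not tested. For MkP minus LTHSC, 430 genes were higher with the mean of all probe sets, 1420 after renewed quantile normalization and 1591 with the term for sex-linked transcripts, which also gave 3670 lower. For MkP minus MkE, 234 were higher and 726 lower with the mean of all probe sets, and 721 and 642 after quantile normalization. For LTHSC minus STHSC, 371 were higher and 186 lower with the mean of all probe sets, and 435 were higher after quantile normalization. With only the compared arrays, 2 were higher and 1 lower, where 2068 had an unadjusted p under 0.05 in limma. Leaving out 1 array gave 220 to 951 higher, the lowest without STHSC replicate 1 and 413 without LTHSC replicate 2; the lower count was 157 to 309, the lowest without STHSC replicate 1. With the replicate block, 828 genes were higher and 2174 lower in MkP than in LTHSC, and 30 and 22 platelet genes. With the term for sex-linked transcripts, which is estimated from other groups because MkP and LTHSC share no class, values changed sign for Xist (-0.23), Eif2s3y (1.48), Cdk1 (-0.67), Plk1 (-1.35), Birc5 (-0.29), Tpx2 (-0.43), Cdc45 (-0.66), Tk1 (-0.59) and Atf3 (0.12), as did Nip7 (0.08) with the mean of all probe sets. Genes not called as reported that were called with the opposite sign were, with that term, Fcer1g (2.12), Pecam1 (-1.33), F13a1 (2.20), Vegfa (2.19), Btk (-1.17), Nfe2 (1.09), Gins2 (-1.03), Lig1 (-1.06), Egr2 (2.35), Usp18 (-1.59), Alas2 (-3.84), Cd14 (2.87), Lyz2 (2.83), Cd79a (-3.53) and Klrd1 (3.76), and with the mean of all probe sets Rab27b (1.72) and Hoxa5 (-1.62). No detection calls were used, so differences between dim genes are the least certain.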

Other observations

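Among the 55 genes called higher both in MkP than in MkE and in LTHSC than in STHSC, 14 belong to the platelet lists. Of the others, 5 are named here, chosen after their values were seen. Trpc6, the gene of a calcium channel, was 4.03 higher in MkP than in MkE and 2.98 higher in LTHSC than in STHSC. Ctnnal1, a catenin-like gene of the stem cell list, was 2.68 and 2.29 higher in the same comparisons. Gda, the gene of guanine deaminase, was 2.22 and 2.77 higher, Tgm2, which codes for tissue transglutaminase, 2.20 and 2.57, and Ndn, the gene of necdin, 2.09 and 2.42.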
